A study of Mus musculus with 4 samples.

Results

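Genes of fatty acid uptake and of adipocytes were followed in stromal cells of the mouse large intestine. The 7 genes are Cd36, Fabp4, Lpl, Gpihbp1, Pparg, Adipoq and Plin1. They were picked by symbol from the 23284 gene symbols of the deposited tables, and all 7 were found. Messenger RNA had been sequenced from living podoplanin-positive cells sorted without leukocytes (CD45), blood endothelium (CD31) and epithelium (EpCAM). KO stands for knockout, and each name below means the library labelled so. There are 4 libraries, 1 each from wild type BALB/c mice, Rag2 KO mice on BALB/c, wild type C57BL/6J mice and IL-10 KO mice on C57BL/6J. Rag2 KO mice lack mature T and B cells, and IL-10 KO mice lack a cytokine that restrains inflammation. The labels give no age, no sex and no number of animals per library, and each knockout was compared with the wild type of its own strain. With 1 library per group no value has a replicate error, no test between groups was possible, and "higher" and "lower" describe these libraries.

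Fatty acids reach tissues largely as triglycerides in lipoproteins. Lipoprotein lipase, made by cells of the tissue, is carried to the capillary wall by GPIHBP1 and frees the fatty acids there. CD36 takes fatty acids up at the plasma membrane, FABP4 binds them in the cytosol, and PPARG is the nuclear receptor that drives fat cell formation and activates genes of this pathway. Adiponectin (Adipoq) and perilipin 1 (Plin1) are products of mature fat cells. Cd36, Fabp4 and Gpihbp1 are also known from capillary endothelium, and Cd36 and Pparg from macrophages.

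Of the 7 genes, Cd36 was the one that stood apart in both knockouts, with levels about 4-fold below the wild type of the same strain. Lpl was 3.09-fold above wild type in the Rag2 KO but not in the IL-10 KO. Fabp4 and Pparg stayed within 2-fold everywhere, Gpihbp1 was low, and Adipoq and Plin1 were at or near 0. Levels are given as FPKM, by definition the fragments of a gene divided by its transcript length and by the library's mapped fragments. Whether the submitters also rescaled the libraries is not given. Orders between genes are of these deposited values, which for some genes, such as Gapdh, are near 0.

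**Figure D1:**
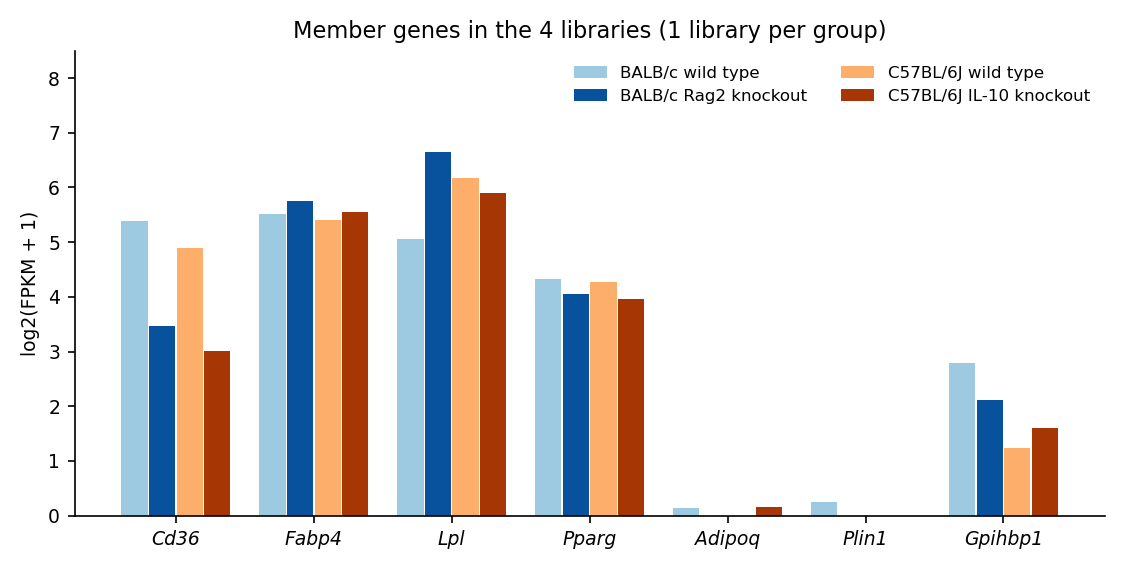
Level of each member on the log2(FPKM + 1) scale in the 4 libraries, 1 bar per library, with no error bars because each group has 1 library. Cd36 bars of both knockouts lie under those of both wild types, Lpl is lowest in wild type BALB/c, and Adipoq and Plin1 are at or near 0.

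The steps between low FPKM values place the depth between 8351863 and 9924831 fragments per library, a range of 1.19-fold. If the submitters rescaled the libraries, these are rescaled sizes. Pdpn, the gene of the sort marker, had 158 to 293 FPKM, and the 12 fibroblast markers summed to 13883 to 16707 FPKM. Ptprc (CD45) had 8.31 FPKM in wild type BALB/c, 11.5 in the Rag2 KO, 3.34 in wild type C57BL/6J and 43.1 in the IL-10 KO, so transcripts of cells outside the gate were present and unequal. Rag2 itself was listed at 0.712 FPKM in the library labelled Rag2 KO and at 0 in the other 3. Its whole-gene value thus does not bear out that label, but cannot show whether the deleted part was read. Cd79a, a B cell gene, was 11.4 FPKM in wild type BALB/c and 0.829 in the Rag2 KO. Igj, the immunoglobulin J chain gene, was 428 FPKM in wild type BALB/c and 1.36 in the Rag2 KO. Il10 had 3.33 FPKM in wild type C57BL/6J and 129.9 in the library labelled IL-10 KO; whole-gene values do not show whether the deleted part was read. The wild type C57BL/6J library held transcripts of both sexes (Xist 23.02 and Ddx3y 16.9 FPKM) and the IL-10 KO library those of females (44.9 and 0.027), whereas both BALB/c libraries were male by these genes (Xist 0.051 and 0.105, Ddx3y 36.3 and 31.5).

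Cd36 lies on chromosome 5, 17781690 to 17888959 (GRCm38), and Pparg on chromosome 6, 115360879 to 115490404. RefSeq start regions were found for 4 of the 7 members (Adipoq, Cd36, Plin1 and Pparg), 6 regions in all. Those of Cd36, the member with the largest difference in both knockouts, and of Pparg, which encodes its textbook regulator, are shown for the 250 bases before the start site, from RefSeq on GRCm38.p6. The letters searched on both strands were AGGTCA, a binding hexamer of PPARG and other nuclear receptors, printed in capitals here (TGACCT where it lies on the opposite strand).
Cd36, chr5:17835897-17836146, minus strand: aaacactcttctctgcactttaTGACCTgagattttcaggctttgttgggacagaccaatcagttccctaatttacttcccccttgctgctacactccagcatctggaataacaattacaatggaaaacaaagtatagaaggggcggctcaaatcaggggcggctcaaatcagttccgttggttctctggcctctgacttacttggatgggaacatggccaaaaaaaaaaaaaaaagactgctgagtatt
Pparg, chr6:115360894-115361143, plus strand: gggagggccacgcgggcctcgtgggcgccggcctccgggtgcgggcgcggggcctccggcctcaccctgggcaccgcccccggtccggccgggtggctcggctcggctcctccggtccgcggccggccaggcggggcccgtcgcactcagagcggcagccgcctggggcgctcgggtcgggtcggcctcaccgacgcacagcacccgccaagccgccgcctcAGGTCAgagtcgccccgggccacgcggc
Pparg, chr6:115362099-115362348, plus strand: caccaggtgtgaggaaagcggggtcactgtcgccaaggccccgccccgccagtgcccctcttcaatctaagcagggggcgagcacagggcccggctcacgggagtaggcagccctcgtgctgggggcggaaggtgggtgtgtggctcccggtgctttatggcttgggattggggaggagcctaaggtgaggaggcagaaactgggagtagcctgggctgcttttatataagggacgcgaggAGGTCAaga
The Cd36 region starts inside the gene span, at 1 of its alternative starts, and its hexamer begins 228 bases before that start. In the Pparg regions the hexamers begin 28 and 9 bases before the start. The third Pparg region and those of Adipoq and Plin1 hold no AGGTCA. Of all 32851 start regions in the table, 14.02% hold AGGTCA, so a match is common, and 11 hold the direct repeat AGGTCANAGGTCA, none of them a member's. The letters TATAAA, present in 12.4% of all regions, were found in 1 of the 6 member regions, the second of Pparg, on the strand opposite to transcription only, so that the sequence printed above reads tttata. Overlapping it, the printed strand reads tatataag, a near form that this exact search does not count.

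Cd36, the membrane transporter, had 40.9 FPKM in wild type BALB/c, 10.02 in the Rag2 KO, 28.7 in wild type C57BL/6J and 7.01 in the IL-10 KO. The wild types are high, the knockouts low, and the ranges do not overlap. In the IL-10 KO the gene was 4.09-fold below wild type, with a log2 ratio of FPKM + 1 of -1.89, and 77 of 12790 genes compared had a lower ratio. For the Rag2 KO it was 4.08-fold below wild type, a log2 ratio of -1.93, and 37 of 12336 genes had a lower one. Without the added 1 the log2 ratios were -2.03 in both comparisons, with 95% counting intervals of -2.27 to -1.80 for IL-10 and -2.21 to -1.85 for Rag2. These intervals rest on an estimated 187 to 1298 fragments per library and cover counting error only. The ratios of the knockout comparisons differed by -0.04 on the log2 scale, less than the counting error.

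Cd36 was the 1 member 2-fold or more below wild type in the IL-10 KO, where 0 members were higher. Over all genes compared 3.82% were at least 2-fold lower and 10.1% higher there. In the Rag2 KO 1 member was lower (Cd36) and 1 higher (Lpl), against 2.03% lower and 4.42% higher over all genes. In both comparisons, which share no library, 105 genes were at least 2-fold lower, 21.5% of the IL-10 list and 41.8% of the Rag2 list. Cd36 is among them, and 6 of the 105 had a ratio beyond -1.89 in both. Counting the knockouts together, 2 members (Cd36 and Pparg) had both knockout values below both wild type values, and 1 (Fabp4) had both above. The shares over all 13078 genes were 24.7% and 25.4%, so these counts alone set the members apart from nothing. A gap of at least 2-fold between the lower wild type and the higher knockout was seen for Cd36 (log2 gap 1.43) and for 0.443% of all genes. No member had such a gap in the other direction, which 2.39% of all genes had.

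**Figure D2:**
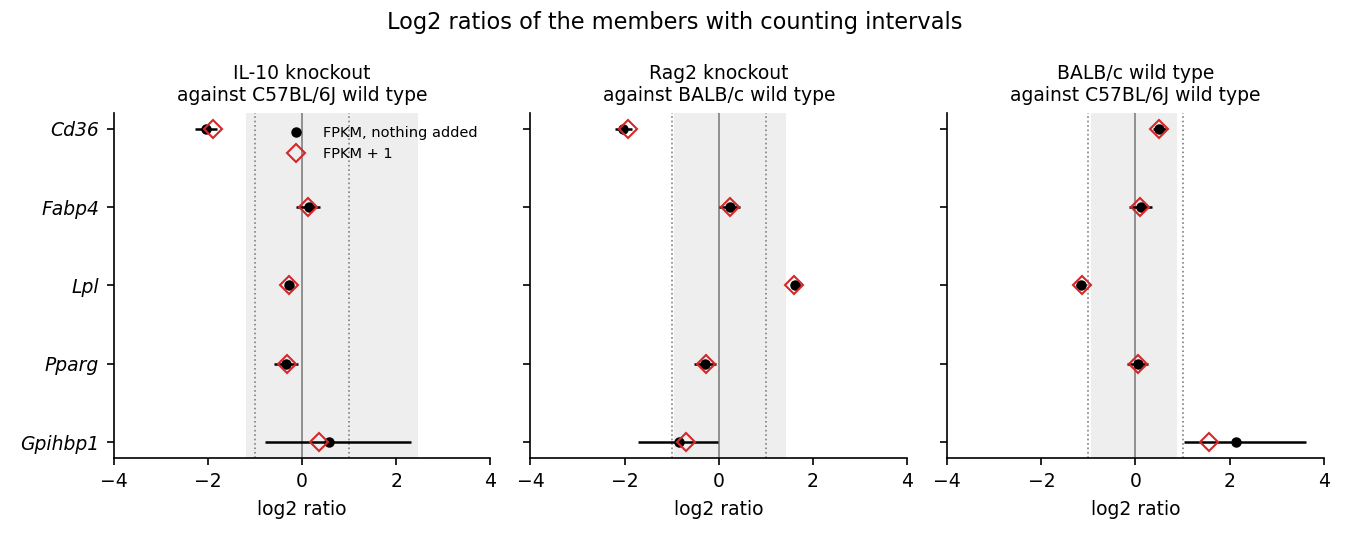
Log2 ratio of the 5 members that passed the filter in each comparison. Diamonds use FPKM + 1, black points FPKM alone with the 95% counting interval as a line, grey bands hold the middle 95% of all genes compared, and dotted lines mark 2-fold. Cd36 lies left of the band in both knockout comparisons, Lpl right of it in the Rag2 comparison, and Gpihbp1 has wide intervals.

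Fabp4, the fatty acid-binding protein of fat cells (chromosome 3, 10204342 to 10208616), had 44.7 FPKM in wild type BALB/c, 52.6 in the Rag2 KO, 41.5 in wild type C57BL/6J and 45.6 in the IL-10 KO. The highest was 1.27-fold above the lowest. Its log2 ratios were 0.14 (IL-10) and 0.23 (Rag2). The ratio of Cd36 to Fabp4 inside a library, which no scaling between libraries can change, was 0.915 in wild type BALB/c and 0.692 in wild type C57BL/6J. It was 0.190 in the Rag2 KO and 0.154 in the IL-10 KO.

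Pparg, the nuclear receptor, had 19.1 FPKM in wild type BALB/c, 15.6 in the Rag2 KO, 18.4 in wild type C57BL/6J and 14.6 in the IL-10 KO. Both knockouts were slightly under both wild types, with log2 ratios of -0.27 (Rag2) and -0.32 (IL-10). In the IL-10 comparison 23.5% of genes had a lower ratio, and in the Rag2 comparison 22.6%, so Pparg lay inside the bulk of genes. The ratio of Cd36 to Pparg went from 2.14 to 0.641 in BALB/c and from 1.56 to 0.481 in C57BL/6J.

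Lpl, lipoprotein lipase (chromosome 8, 68880555 to 68906932), was the most abundant member in every library except wild type BALB/c. Its level was 32.1 FPKM in wild type BALB/c, 99.2 in the Rag2 KO, 71.4 in wild type C57BL/6J and 58.8 in the IL-10 KO. wild type BALB/c is the low library, and the other three lie between 58.8 and 99.2 FPKM. In the Rag2 comparison the log2 ratio was 1.60, with 242 of 12336 genes higher. Without the added 1 it was 1.63, with a counting interval of 1.53 to 1.72. In the IL-10 comparison the log2 ratio was -0.28. Between the wild types Lpl was 2.22-fold lower in BALB/c, a log2 ratio of -1.13. That comparison shares the wild type BALB/c library with the Rag2 comparison, so both ratios rest on the same low value.

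Gpihbp1, the capillary anchor of the lipase (chromosome 15, 75596630 to 75598213), had 5.96 FPKM in wild type BALB/c, 3.33 in the Rag2 KO, 1.36 in wild type C57BL/6J and 2.02 in the IL-10 KO. Both BALB/c libraries are above both C57BL/6J libraries, but the share of all genes ordered in this way was not counted. The values stand for an estimated 37, 20, 7 and 11 fragments in the same order. Between the wild types the log2 ratio was 1.56, and 66 of 12290 genes had a higher one. Without the added 1 it was 2.13, with a counting interval of 1.03 to 3.62. In this comparison 1 member was at least 2-fold higher in BALB/c (Gpihbp1; 1.81% of all genes) and 1 lower (Lpl; 2.17%). With a pseudocount of 5 in place of 1 the ratio of Gpihbp1 was 0.78, inside 2-fold. Its knockout ratios were 0.36 (IL-10) and -0.69 (Rag2). Without the added 1 they were 0.57 (IL-10), with a counting interval of -0.79 to 2.31 that holds 0, and -0.84 (Rag2), with one of -1.71 to -0.02. The ratio of Lpl to Gpihbp1 was 5.39 in wild type BALB/c, 29.8 in the Rag2 KO, 52.6 in wild type C57BL/6J and 29.1 in the IL-10 KO.

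Products of mature fat cells were scarcely seen. Adipoq (chromosome 16, 23146536 to 23157968) had 0.098 FPKM in wild type BALB/c and 0.116 in the IL-10 KO, about 1 fragment each, and was listed at 0 in the Rag2 KO and in wild type C57BL/6J. Plin1 (chromosome 7, 79721164 to 79732904), which coats the lipid droplet of fat cells, had 0.182 FPKM in wild type BALB/c, about 3 fragments, and was listed at 0 in the other libraries. A level of 3 fragments corresponds to 0.277 to 0.329 FPKM for Adipoq and 0.176 to 0.209 for Plin1. Neither gene passed the filter of 1 FPKM in either library, and no fold is given for them. A gene listed at or near 0 in these tables need not be silent, since the housekeeping genes Gapdh and Ppia had at most 0.349 and 0.433 FPKM. Some other fat cell genes were low too, and the hormones Lep and Retn were listed at 0 in all 4 libraries. Cfd (adipsin) had at most 0.561 FPKM, Adig 0.730, Cidec 0.153 and the brown fat gene Ucp1 0.209. Further genes of the fat cell and lipid droplet lists were not low, such as Rbp4 (32.0 to 122 FPKM), Itih5 (51.3 to 110) and Lipe (7.66 to 12.4). Whether fat cells were absent was not tested.

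Order of level was Fabp4, Cd36, Lpl, Pparg, Gpihbp1 in wild type BALB/c, where Fabp4 and Cd36 were close. In the Rag2 KO it was Lpl, Fabp4, Pparg, Cd36, Gpihbp1, and in the IL-10 KO the order was the same. In wild type C57BL/6J it was Lpl, Fabp4, Cd36, Pparg, Gpihbp1. Cd36 thus stood above Pparg in both wild types and below it in both knockouts. In terms of all gene symbols, Cd36 exceeded 93.4% of them in wild type BALB/c, 90.2% in wild type C57BL/6J, 75.04% in the Rag2 KO and 68.8% in the IL-10 KO.

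Markers of cells that could carry these genes did not all follow Cd36. For this and the following marker lists, the shares over all genes were 10.1% higher and 3.82% lower in the IL-10 KO. In the Rag2 KO they were 4.42% higher and 2.03% lower. Of the capillary and blood endothelial markers, 23 were compared in the IL-10 KO and 22 in the Rag2 KO; 1 was at least 2-fold higher in each (Ly6c1) and 0 lower, with medians of -0.01 and 0.11. Their summed level without Ly6c1 was 196 FPKM in wild type BALB/c, 243 in the Rag2 KO, 195 in wild type C57BL/6J and 211 in the IL-10 KO. Pecam1 (CD31) had 13.3, 13.3, 12.4 and 17.9 FPKM in the same order. Relative to Pecam1, Cd36 went from 3.07 to 0.756 in BALB/c and from 2.31 to 0.392 in C57BL/6J, while Fabp4 went from 3.36 to 3.97 and from 3.33 to 2.55.

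Macrophage markers moved opposite to Cd36 in the IL-10 KO (median 2.39) and less so in the Rag2 KO (median 0.70). Of 17 compared, 15 were at least 2-fold higher in the IL-10 KO and 7 in the Rag2 KO, with 0 at least 2-fold lower in either (summed 345, 693, 182 and 1221 FPKM, in the order wild type BALB/c, Rag2 KO, wild type C57BL/6J and IL-10 KO). In the Rag2 KO 10 stayed within 2-fold, and Cd163 and Cd68 were slightly lower (log2 ratios of -0.35 and -0.08). All 8 general leukocyte markers were higher in the IL-10 KO (summed 129, 192, 72.2 and 710 FPKM), and 1 of 8 in the Rag2 KO. All 12 epithelial markers were higher in both knockouts (summed 42.4, 177, 112 and 419 FPKM). Among 8 platelet and erythroid markers 4 were compared, 2 of them higher in the IL-10 KO and 0 lower in either. Enterocyte markers were low, with Fabp1 and Sis listed at 0 in all 4 libraries and summed levels of 3.55 to 5.23 FPKM without Car1. Car1, a carbonic anhydrase gene, was higher in the IL-10 KO, 43.05 against 12.5 FPKM, as 1 of 2 enterocyte markers compared, and 0 of 3 passed 2-fold in the Rag2 KO.

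Smooth muscle markers moved the same way as Cd36, with 7 of 8 2-fold or more below wild type in the IL-10 KO and 5 of 8 in the Rag2 KO and medians of -1.19 and -1.17. Their summed level was 961 FPKM in wild type BALB/c, 471 in the Rag2 KO, 870 in wild type C57BL/6J and 371 in the IL-10 KO. Markers of lymphatic endothelium, which carries podoplanin but also CD31, had medians of -0.56 and -0.61 with 2 of 7 and 0 of 7 at least 2-fold lower (Lyve1 and Mmrn1), and summed to 108, 64.4, 76.1 and 51.8 FPKM. Pericyte markers had medians of -0.55 and -0.56 with 1 of 8 lower in each (Cspg4; summed 170, 128, 145 and 91.7 FPKM). Fibroblast markers had medians of -0.30 and -0.14, with 2 of 12 lower in the IL-10 KO (Col6a1 and Col6a2, log2 ratios of -1.15 and -1.36) and 0 of 12 in the Rag2 KO. The part of these cell types in the Cd36 result was not tested, and in bulk RNA fewer cells of a type and less RNA per cell cannot be told apart. Of 7 mesothelial markers 2 were compared, Wt1 and Krt19; both were at least 2-fold higher in the IL-10 KO (median 1.64) and Krt19, also an epithelial marker, in the Rag2 KO (2.27), while Msln had at most 0.180 FPKM; of 8 glial and neuronal markers 3 were compared and 0 passed 2-fold. Of 6 brown fat markers 2 and 3 were compared, and Dio2 was higher in the IL-10 KO, from 0.428 to 3.29 FPKM.

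Other genes of fatty acid uptake showed no common fall. Among all genes compared, 10.1% were higher and 3.82% lower in the IL-10 KO, and 4.42% higher and 2.03% lower in the Rag2 KO. In the IL-10 KO 1 of 14 was at least 2-fold higher (the transporter gene Slc27a3, 18.2 against 6.89 FPKM) and 1 lower (Cav1, which encodes the coat protein of caveolae, 37.5 against 139). The median log2 ratio was 0.55, beside -0.0018 over all genes. In the Rag2 KO 1 of 13 was higher (Acsl4, which joins long polyunsaturated fatty acids to coenzyme A, 45.8 against 18.5 FPKM) and 0 lower, with a median of 0.17 beside -0.0041 over all genes. Cav1 had 80.3 against 107 FPKM there. Fabp3 and Fabp5, relatives of Fabp4, had 1.32 to 3.48 and 1.25 to 2.47 FPKM.

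Among regulators of the lipase and lipoprotein receptors, Angptl4 was at least 2-fold higher and Pcsk6 at least 2-fold lower in both knockouts. Angptl4, a secreted inhibitor of lipoprotein lipase, had 24.01 FPKM in wild type BALB/c, 77.6 in the Rag2 KO, 9.38 in wild type C57BL/6J and 29.6 in the IL-10 KO, log2 ratios of 1.65 and 1.56. Both knockouts exceed both wild types, but by little between wild type BALB/c and the IL-10 KO. Pcsk6, a proprotein convertase, had 103 FPKM in wild type BALB/c, 39.5 in the Rag2 KO, 105 in wild type C57BL/6J and 21.3 in the IL-10 KO. The list had 4 of 16 genes higher and 1 lower in the IL-10 KO (median 0.39), and 3 of 14 higher and 1 lower in the Rag2 KO (median 0.45). The shares over all genes were 10.1% higher and 3.82% lower in the IL-10 KO, and 4.42% higher and 2.03% lower in the Rag2 KO. Apoe (1103 against 447 FPKM), Apoc1 and Furin were also higher in the IL-10 KO, and Lipg (14.2 against 6.02 FPKM) in the Rag2 KO.

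Lipid droplet and triglyceride genes mostly kept within 2-fold, as did most of all genes compared. Of all genes, 10.1% were higher and 3.82% lower in the IL-10 KO, and 4.42% higher and 2.03% lower in the Rag2 KO. In the IL-10 KO 2 of 15 were higher, Dgat1 (105 against 20.8 FPKM) and Dgat2 (17.3 against 3.58), the enzymes of the last step of triglyceride synthesis, and 0 were lower (median 0.24). The same genes had, in the Rag2 KO, 23.8 against 19.96 and 6.21 against 4.71 FPKM, and 1 of 16 genes was higher, G0s2, an inhibitor of the triglyceride lipase ATGL, with 52.0 against 25.1. Plin2 and Plin3, droplet coats found in most cell types, had 28.3 to 40.4 and 24.6 to 33.4 FPKM, far above Plin1.

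Of the fixed list of fat cell hormones and identity genes, 11 passed the filter for IL-10 and 10 for Rag2. Over all genes 3.82% were lower and 10.1% higher in the IL-10 KO, and 2.03% lower and 4.42% higher in the Rag2 KO. Of this list, 4 were lower and 0 higher in the IL-10 KO (median -0.63), and 1 was lower and 0 higher in the Rag2 KO (median -0.32). The genes that moved are not restricted to fat cells. Cdh13, which encodes T-cadherin, a receptor for adiponectin, had 28.98 FPKM in wild type BALB/c, 15.4 in the Rag2 KO, 28.4 in wild type C57BL/6J and 5.37 in the IL-10 KO. Rbp4, the retinol carrier, had 122, 61.7, 95.01 and 32.0 FPKM in the same order. Nnat was lower in both knockouts (log2 ratios of -1.12 and -1.25), and Sncg in the IL-10 KO.

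Transcription factors of fat cell formation were present, nearly all within 2-fold. The shares over all genes were 10.1% higher and 3.82% lower in the IL-10 KO, and 4.42% higher and 2.03% lower in the Rag2 KO. Cebpa, the partner of PPARG in fat cells, had 30.8 FPKM in wild type BALB/c, 30.3 in the Rag2 KO, 25.3 in wild type C57BL/6J and 17.8 in the IL-10 KO. Rxra, the dimer partner of PPARG, had 13.4 to 17.9 FPKM, and Cebpd 304 to 541. Of 20 genes compared in the IL-10 KO 1 was higher (Ebf1, 30.2 against 13.8 FPKM) and 0 lower, and of 21 in the Rag2 KO 0 passed 2-fold. The medians were 0.0032 and -0.06. Neither fatty acid oxidation genes (0 of 22 and 0 of 21 past 2-fold, medians -0.06 and 0.01) nor fatty acid synthesis genes (0 of 12 in both, medians -0.24 and 0.20) passed 2-fold in a knockout. Lists this short can hold few such genes at these shares, and no list was tested against all genes.

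**Figure D3:**
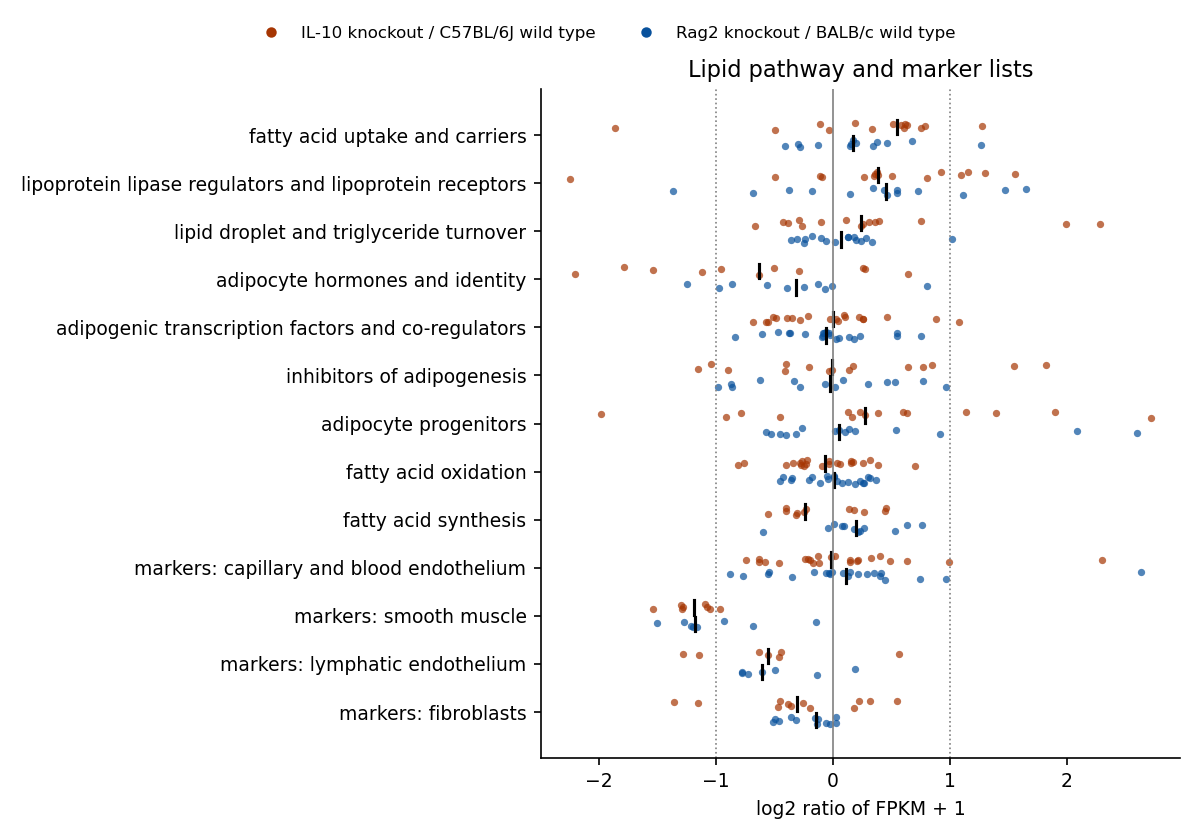
Log2 ratio of FPKM + 1 for each gene of the lipid lists and of 4 marker lists that had at least 1 FPKM in either library, brown for IL-10 and blue for Rag2, with the list median as a black bar and 2-fold as dotted lines; the members are left out. Oxidation and synthesis genes lie between the 2-fold lines, while smooth muscle markers lie mostly left of them.

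Genes with the most similar profile were sought among 8820 genes with at least 5 FPKM in their highest library, by the Euclidean distance between log2 profiles over the 4 libraries after each gene's mean was subtracted. For Cd36 these were Emid1 (distance 0.13), Hhip, an antagonist of hedgehog ligands (0.14), and Leprel1 (0.18), where the median gene had 1.99. Emid1 had 62.4 FPKM in wild type BALB/c, 14.2 in the Rag2 KO, 44.9 in wild type C57BL/6J and 11.4 in the IL-10 KO. For Lpl the nearest were Creb3l1 (0.41), Galk1 (0.42) and Fam57a (0.45), against a median of 1.24, all with their lowest value in wild type BALB/c. The neighbours of Gpihbp1 were Ctsk (0.29), Dcps (0.34) and Mid1 (0.34). Those of Fabp4 (Map3k7, Usp14 and Med27) and Pparg (Taf4a, Rab4a and Slc24a6) lay within 0.04, against medians of 0.45 and 0.47. With 4 libraries a small distance describes these values and no more.

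**Figure D4:**
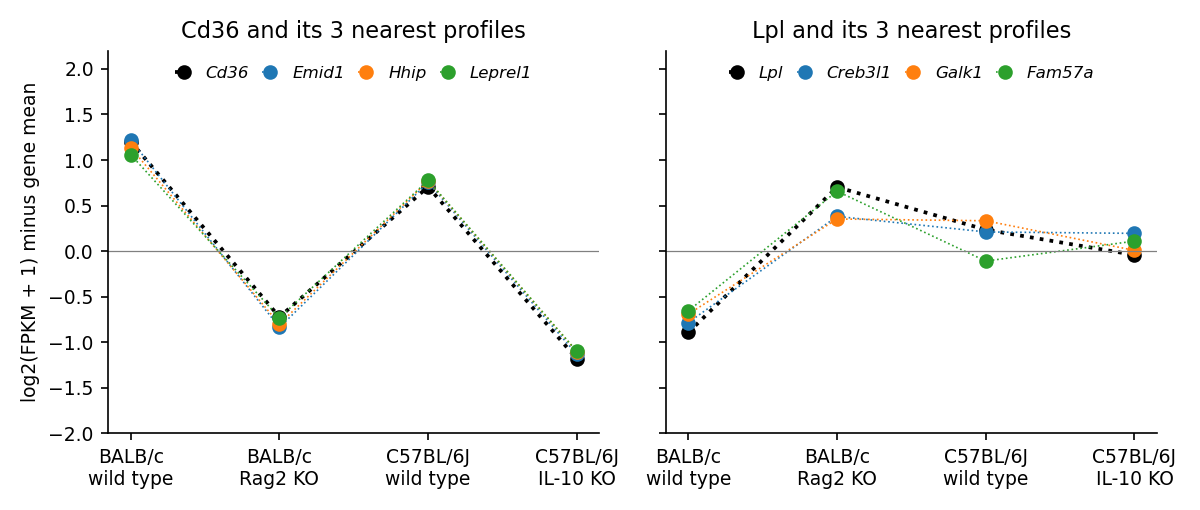
Log2(FPKM + 1) minus the gene's mean over the 4 libraries, for Cd36 and Lpl (black) and the 3 genes nearest to each; dotted lines only join the points of 1 gene. The Cd36 set is high in both wild types and low in both knockouts, and the Lpl set is lowest in wild type BALB/c.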

How the data were processed

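The deposited values are FPKM per gene symbol, computed by the authors, with 1 file per library. Alignment and quantification tools, per the submitters' processing notes, were Cuffdiff 2.2.1, TopHat2 2.1.1, SAMtools 0.1.18 and Bowtie2 2.2.8, with build mm10; annotation, strand setting and normalization: not given in the sources used here. Libraries were made with a stranded mRNA kit from total RNA, per the labels' protocols. Log2 ratios were differences of log2(FPKM + 1); genes with at least 1 FPKM in either library were compared and those at least 2-fold apart counted. No test was run. Depth was estimated from the steps of low FPKM values in single-transcript GENCODE genes of at least 1000 nt (length minus 200 nt): 106 to 130 genes per library lay within 5% of 1 fragment. Counting intervals are exact binomial (Clopper-Pearson) on estimated fragments, at 95%, using the longest RefSeq-matched transcript; they are approximate for genes with several transcripts. Positions and start regions are from RefSeq GRCm38.p6, the build of mm10. Of 323 list entries in 23 lists, 321 were found; 1 gene counted in the lists is not reported here. The named genes are the members, the 3 nearest profiles of each member with at least 5 FPKM, up to 4 genes per lipid list with the largest absolute ratio, and the top markers; Gapdh, Ppia, Cebpa, Rxra and further genes given for their role were added after their values were seen. Members and lists were chosen with earlier results of these data known. The counting rule was tried on simulated data, with folds well beyond the threshold planted in well expressed genes and counting noise only. That does not cover changes near 2-fold, changes in genes of low level or differences between animals. Python 3.11.15, pandas 2.3.3, numpy 2.4.6 and scipy 1.17.1 were used.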

Additional observations from a re-analysis of the deposited data

Results flagged for a closer look

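Lpl differed between the knockout comparisons: its log2 ratio was 1.60 with Rag2 and -0.28 with IL-10, a difference of 1.87, and 38 of 12048 genes compared in both had a larger one. The directions are opposite, with 1 library per group, so the difference was not tested. wild type BALB/c holds the low value (32.1 FPKM), and the knockouts themselves had 99.2 and 58.8 FPKM.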

How the results depend on the processing

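Pseudocounts of 0.1 and 5, no filter, a filter of 5 FPKM and 2 rescalings of the libraries were tried. A filter only decides which genes are compared. The filter settings therefore repeat the main ratio of a member, and only the pseudocounts and rescalings could change it. Over 15 member ratios and 89 alternative values, all 89 kept their sign and 88 their side of 2-fold; the exception was Gpihbp1 between the wild types with a pseudocount of 5 (0 members higher). Cd36 ranged from -2.02 to -1.49 (IL-10) and -2.06 to -1.61 (Rag2), and Lpl from 1.46 to 1.62 (Rag2). Counts over all genes moved more. With a pseudocount of 0.1, 787 genes were lower with IL-10 and 532 with Rag2, and 477 were higher and 452 lower in wild type BALB/c. With a pseudocount of 5, the higher and lower counts were 611 and 182 (IL-10), 278 and 68 (Rag2) and 56 and 104 (wild types). With 5 FPKM required, 846 were higher with IL-10, 159 lower with Rag2 and 129 higher in wild type BALB/c. No paired analysis was possible because each group has 1 library, and for the same reason no library could be left out. Depth limits Gpihbp1, Adipoq and Plin1 most.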

Other observations

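Progenitors of fat cells in the adventitia share genes with gut fibroblasts, and these went both ways. For comparison, 10.1% of all genes were higher and 3.82% lower in the IL-10 KO, and 4.42% higher and 2.03% lower in the Rag2 KO. The IL-10 KO had 4 of 15 at least 2-fold above wild type and 1 below (median 0.27): Pi16 had 502.7 against 75.4 FPKM, Ly6a 1754 against 468, Cd55 300.2 against 136 and Bst2 214 against 80.7, whereas Col15a1 had 62.1 against 248. In the Rag2 KO 2 of 15 were higher, Ly6a (2894 against 475 FPKM) and Bst2 (309.5 against 72.04), both also known as interferon-induced genes, and Pi16 had 133 against 132. Pdgfra, the general fibroblast receptor gene, had 102 to 149 FPKM across libraries.

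Genes of a fixed list of inhibitors of fat cell formation had medians of -0.01 and -0.02. Not every listed gene need act as an inhibitor, Sfrp1 among them. The same shares over all genes apply to the counts here. They were 10.1% higher and 3.82% lower in the IL-10 KO, and 4.42% higher and 2.03% lower in the Rag2 KO. In the IL-10 KO 2 of 15 were higher, Trib2 (6.20 against 1.03 FPKM) and Inhba, an activin subunit (10.8 against 3.03), and 2 lower, Wnt5a (5.71 against 13.96) and the deacetylase gene Sirt1 (27.4 against 57.6). In the Rag2 KO 0 of 14 passed 2-fold. Dlk1, the preadipocyte factor, had at most 0.120 FPKM.

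Between the wild types, 1.81% of all genes were at least 2-fold higher in BALB/c and 2.17% lower. In the uptake, lipid droplet and oxidation lists 13, 16 and 22 genes were compared. Of these, 0 were 2-fold apart, with G0s2 just inside (log2 ratio -0.998). Lists this short can hold 0 such genes at these shares, so the count alone sets them apart from nothing. The other lipid lists did hold such genes. Higher in BALB/c were Angptl4 (24.01 against 9.38 FPKM), Stat5a (15.4 against 6.45) and Wnt2 (12.2 against 5.58). Among those lower in BALB/c were Scd2 (17.3 against 48.0 FPKM), Sncg (1.15 against 4.80), Ebf1 (5.90 against 13.8), Trib3 (0.761 against 2.73) and Anxa3 (12.1 against 29.5).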
